A study of Homo sapiens with 2 samples.

Results

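The AP-1 and immediate early factors FOS, FOSB, FOSL1, FOSL2, JUN, JUNB, JUND, ATF3, EGR1 and MYC were read in Huh-7 cells, a human hepatoma line, with and without interferon-alpha. Every probe set annotated to only 1 of these 10 genes was taken, which gave 24 of the 54675 probe sets on the array, and no probe set naming a member together with another gene was found. The treated culture was kept for 24 hours, then given recombinant human interferon-alpha 2b (100 U/mL) for 6 hours. The untreated culture had its medium exchanged at that point, and the sources used here do not give its harvest time. Each condition was 1 culture of the line on 1 array, so differences could not be tested and have no replicate check.

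AP-1 is a dimer of basic leucine zipper proteins, usually a FOS family protein with a JUN family protein, which binds a short palindromic DNA site. FOS, JUN, EGR1, ATF3 and MYC are classic immediate early genes: growth factors, serum or stress switch them on within minutes without new protein synthesis, and their mRNAs are short-lived. Type I interferon acts mainly by another route, in which JAK kinases activate a transcription factor complex that contains IRF9 and binds the interferon-stimulated response element (ISRE) of antiviral genes.

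Probe set values were intensities on a linear scale as deposited. Intensities under 48.5, the 50th percentile over the pooled arrays, were raised to that floor. Ratios are log2 values of interferon over untreated. All 10 genes were above the floor on both arrays with their brightest probe set, which stands for the gene. Of the 24 probe sets, 21 exceeded it in both conditions, 1 on the untreated array only, and 2 on neither array. Probe set names ending in _s_at or _x_at mark probes that can match several transcripts or unrelated sequence. The ratios of all probe sets varied with brightness, so each ratio was also set against probe sets of like brightness. For this purpose, 10 groups of equal size were formed by brightness from the 26507 probe sets that exceeded the floor in both conditions. Their median log2 ratio was -0.02 in the dimmest group and 0.14 in the brightest, and the share of probe sets above 0 was 41.5% and 94.8%.

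The line's hepatocyte character was visible on both arrays. All 7 hepatocyte markers were above the floor, and the albumin gene ALB had an intensity of 14588 with interferon and 12212 untreated. Markers of other cell types were mixed. Of the leukocyte markers, 3 of 5 exceeded the floor in both conditions (LYZ at 2271 with interferon and 2064 untreated, CD14 and CD79A), and PTPRC and CD3E stayed under it. Of the endothelial markers, 2 of 4 exceeded it (PECAM1 and VWF), and KDR and CDH5 stayed under it. Of the fibroblast and stellate markers, 3 of 5 exceeded it (COL1A2 at 560 with interferon and 544 untreated, COL1A1 and DES), COL3A1 did so on the untreated array only, and ACTA2 stayed under it. The interferon array was the brighter one for each of the 18 hybridisation control probe sets of bacterial and phage sequence (median log2 ratio 0.43). Centring on them lowered the interferon array by 0.43 on the log2 scale before the floor was set again. It moved the median log2 ratio of all counted genes to -0.38, against 0.03 as deposited. Every ratio given below as above 0 but under 0.43 is therefore relative to the deposited scaling and fell to 0 or below it under that centring. In a bulk culture, more cells with a transcript and more transcript per cell cannot be told apart.

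No member differed by as much as 1.5-fold after 6 hours of interferon, the only time read, so an earlier short-lived change would not be seen. Of the 10 genes, 0 passed 1.5-fold upward and 0 downward. Among the 13269 counted genes (those above the floor on at least 1 array), 0.754% passed it upward and 0.0829% downward, which became 59 higher and 1201 lower genes after centring on the hybridisation controls, against 100 and 11 as deposited. With such shares, a count of 0 among 10 genes lies near the background. Gene-level log2 ratios ran from -0.20 for FOSL1 to 0.34 for EGR1, with a median of 0.10, beside a median of 0.03 over all counted genes. As deposited, 7 members lay above 0, 2 below it and 1 at 0, where 59.7% of the 12742 genes exceeding the floor in both conditions lay above 0 and 38% below. The spread of those genes gives a scale but is not a replicate error, and 95% of them lay centrally between -0.29 and 0.30 on the log2 scale. EGR1 and MYC were the members outside it.

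**Figure D1:**
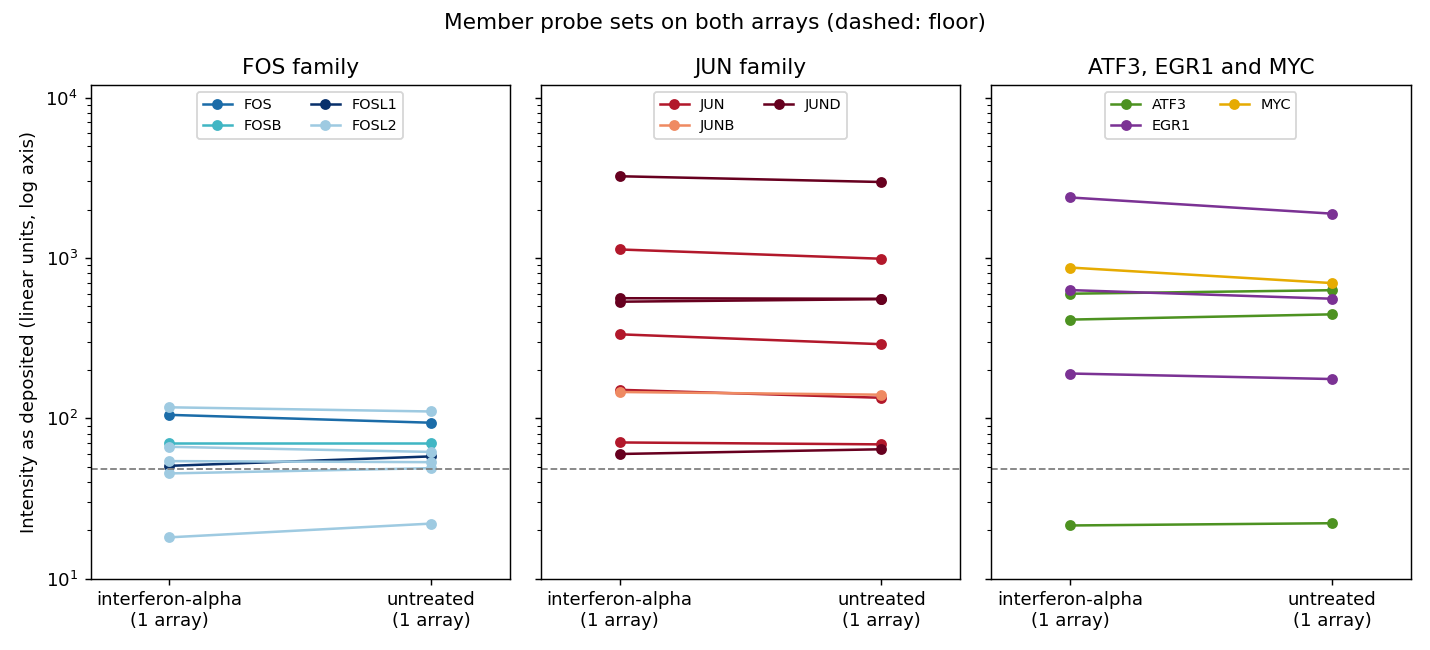
Intensity of each of the 24 member probe sets (log axis, linear units as deposited) on the interferon-alpha array and the untreated array, joined by a line, with 1 array per condition. The dashed line is the floor of 48.5. Lines are close to level, and the largest steps are those of the brightest EGR1 probe set, at 2384 with interferon and 1889.6 untreated, and of MYC, at 871 with interferon and 697 untreated.

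EGR1 and MYC had the highest ratios of the members. EGR1, a zinc finger factor that serum response factor switches on, was read by 3 probe sets. The brightest, 227404_s_at, had an intensity of 2384 on the interferon array and 1889.6 on the untreated array, a ratio of 1.26-fold (log2 0.34). The second, 201694_s_at, had 630.3 with interferon and 557 untreated (log2 0.18), and the dimmest, 201693_s_at, had 190.2 with interferon and 176 untreated (log2 0.11). All 3 were brighter on the interferon array as deposited, but by unequal amounts, and they read the same gene, so they are not replicates. The ratio of the brightest was above the central 95% of its brightness group, which ended at 0.29. The other EGR1 probe sets were within theirs.

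MYC, a helix-loop-helix factor that drives growth and ribosome production, had 1 probe set, 202431_s_at. It had an intensity of 871 with interferon and 697 untreated, or 1.25-fold (log2 0.32). This exceeded the central 95% of its brightness group, which ended at 0.29, and lay 0.25 above that group's median. EGR1's brightest probe set lay 0.20 above its own group's median. These were 2 of the 21 member probe sets above the floor (9.52%), where by construction 2.53% of all probe sets lay above their group's central 95%. No member probe set lay below it. After centring on the hybridisation controls both genes were below 0, EGR1 at -0.09 and MYC at -0.11. With quantile scaling EGR1 had 0.18 and MYC 0.24, and with lowess scaling they had 0.21 and 0.24.

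**Figure D2:**
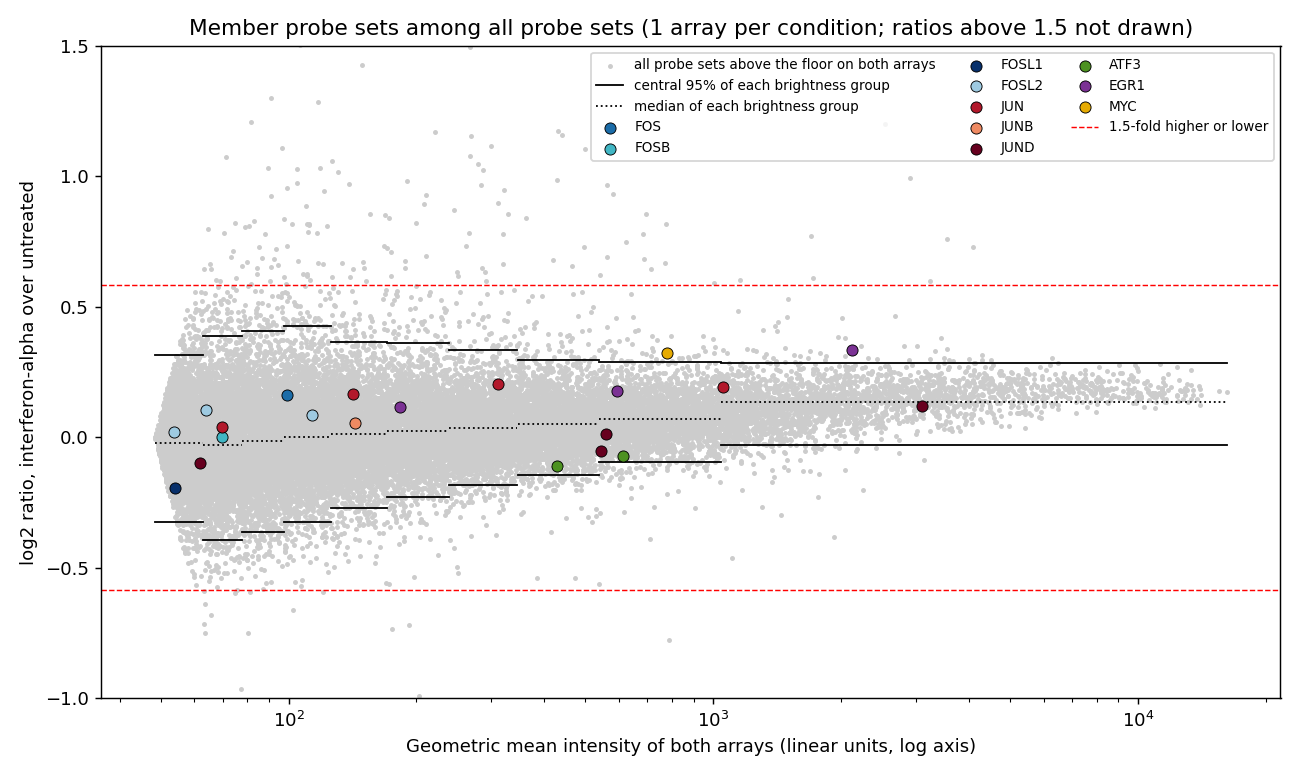
log2 ratio of interferon-alpha over untreated against the geometric mean intensity of both arrays (log axis), for the 26507 probe sets that exceeded the floor in both conditions (grey) and the 21 member probe sets (coloured by gene), with 1 array per condition. Solid lines bound the central 95% of each of 10 brightness groups, dotted lines mark the group medians, red dashes mark 1.5-fold, and 50 probe sets with ratios above 1.5 are not drawn. Of the members, MYC and 1 EGR1 probe set lie above the solid line.

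The regulatory sequence of EGR1 is shown with that of JUND, the member with the brightest probe set, and that of ISG15, a ubiquitin-like antiviral gene whose intensity was 8332 with interferon and 351 untreated (23.7-fold). Each runs 5′ to 3′ up to the base before the annotated gene start, from RefSeq on GRCh38.p14. Capitals mark the GAS motif (TTCNNNGAA) and both CArG boxes in EGR1, the CRE (TGACGTCA) in JUND and the ISRE core (GAAA, any 2 bases, GAAA) in ISG15, where 2 overlapping matches form 1 run.
EGR1, chr5:138465229-138465478, plus strand: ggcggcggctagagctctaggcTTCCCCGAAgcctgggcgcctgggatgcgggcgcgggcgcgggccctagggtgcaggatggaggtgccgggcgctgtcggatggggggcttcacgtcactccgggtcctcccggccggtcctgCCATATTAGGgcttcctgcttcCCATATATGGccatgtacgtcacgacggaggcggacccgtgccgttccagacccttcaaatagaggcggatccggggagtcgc
JUND, chr19:18281623-18281872, minus strand: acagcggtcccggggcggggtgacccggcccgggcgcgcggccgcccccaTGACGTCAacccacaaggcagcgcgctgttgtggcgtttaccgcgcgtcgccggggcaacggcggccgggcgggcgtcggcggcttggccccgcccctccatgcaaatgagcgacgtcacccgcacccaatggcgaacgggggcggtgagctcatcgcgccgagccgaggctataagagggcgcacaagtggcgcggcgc
ISG15, chr1:1013347-1013496, plus strand: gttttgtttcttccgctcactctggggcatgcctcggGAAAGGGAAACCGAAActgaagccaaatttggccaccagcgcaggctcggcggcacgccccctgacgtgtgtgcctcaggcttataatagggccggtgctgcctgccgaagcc

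Windows of 250 bases before to 50 bases after the gene start were searched on both strands for 8 members (FOS, FOSB, FOSL2, JUN, JUNB, JUND, ATF3 and EGR1). FOSL1 had no window, and MYC was left out of the search. The 8 members had 9 windows because ATF3 has 2 annotated starts. The ISRE core matched in 0 of these 9 windows. It matched in 3.57% of all 35116 windows in the table, and in 54.1% of 61 windows of genes that were at least 2-fold higher with interferon. Of all counted genes 0.43% were, 57 in number, and 48 of them had a window. The GAS (gamma-activated sequence) motif matched in 1 of 9 member windows, that of EGR1, beside 7.66% of all windows and 26.2% of those of the 2-fold genes. The CArG box, the site of serum response factor, matched in 1 member window, again EGR1, beside 1.29% of all windows and 1.64% of those of the 2-fold genes. It also matched once in ISG15, from base -91 to base -82, which is left in lower case above. An AP-1 site (TGANTCA) was found in FOSL2 alone among the members, beside 7.71% of all windows and 6.56% of those of the 2-fold genes. The CRE was found in JUND alone among them, beside 1.85% and 1.64%. A TATAAA motif was present in 4 of the 9 windows, those of FOS, FOSB and JUNB and the window of 1 ATF3 start, beside 11.5% of all and 6.56% of those of the 2-fold genes. The E-box CACGTG was found in 0 of 9, in 7.26% of all and in 8.20% of those of the 2-fold genes. These are matches of letters in a short window, and say nothing about binding or about sites further upstream, which were not searched.

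JUN family genes had small ratios. JUN, the partner that binds DNA with FOS proteins or with itself, had 4 probe sets, and all 4 were brighter on the interferon array as deposited. The brightest, 201464_x_at, had an intensity of 1129.6 with interferon and 989 untreated (log2 0.19). Probe set 201465_s_at had 334 with interferon and 289.8 untreated (log2 0.20), and 201466_s_at had 150.5 with interferon and 134 untreated (log2 0.17). The only one without a suffix that marks shared sequence, 213281_at, had 70.7 with interferon and 68.7 untreated (log2 0.04). The JUN probe sets lay between 0.06 and 0.17 above the medians of their brightness groups, and none was outside the central 95%.

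JUNB, which can replace JUN in the dimer and often restrains it, had 1 probe set with an intensity of 145.9 with interferon and 140.3 untreated (log2 0.06). JUND, the constitutively expressed JUN family member, gave ratios on both sides of 0. Its brightest probe set, 203752_s_at, had 3233 with interferon and 2977 untreated (log2 0.12). Probe set 203751_x_at had 561 with interferon and 556 untreated (log2 0.01). The remaining JUND probe sets were dimmer on the interferon array, 214326_x_at at 533 with interferon and 553 untreated (log2 -0.05) and 229117_s_at at 59.9 with interferon and 64.1 untreated (log2 -0.10). All 4 lay below the medians of their brightness groups, by amounts from -0.02 to -0.12, so the sign of JUND depended on the brightness scale. With quantile scaling its gene-level ratio was -0.05, and with lowess scaling it was -0.03.

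FOS family genes also had small ratios. FOS itself, the archetypal immediate early gene, had 1 probe set at 105 with interferon and 93.8 untreated (log2 0.16). FOSB, a close relative, had the same deposited value of 69.7 on both arrays. Such ties occurred in 4.32% of all probe sets on the array, and in 662 of the 26507 above the floor in both conditions. FOSL1 (FRA-1), a target of AP-1 that is prominent in invasive carcinoma cells, had 50.5 with interferon and 57.8 untreated (log2 -0.20), the lowest ratio of the members. Its interferon value lay just above the floor of 48.5, and the ratio was within the central 95% of the dimmest brightness group, which ran from -0.32 to 0.32.

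FOSL2 (FRA-2) had 5 probe sets, of which 3 exceeded the floor in both conditions. The brightest, 205409_at, had an intensity of 117 with interferon and 110.2 untreated (log2 0.09). Probe set 218880_at had 66.4 with interferon and 61.7 untreated (log2 0.11), and 225262_at had 54.1 with interferon and 53.2 untreated (log2 0.02). Probe set 218881_s_at had 45.3 with interferon, below the floor, and 48.8 untreated, just above it. Probe set 228188_at had only 18.1 with interferon and 22.0 untreated, both under the floor, and is given no ratio.

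ATF3, a stress-induced factor that can pair with JUN proteins, was well above the floor in both conditions. Probe set 202672_s_at had an intensity of 598 with interferon and 629 untreated (log2 -0.07), and 1554980_a_at had 413 with interferon and 445 untreated (log2 -0.11). Both lay below the medians of their brightness groups, by -0.14 and -0.16, and above the lower bounds of the central 95%, which were -0.10 and -0.14. The third ATF3 probe set, 1554420_at, was under the floor in both conditions, with 21.4 with interferon and 22.2 untreated. ATF3 was thus dimmer on the interferon array with each probe set above the floor, by 1.05-fold and 1.08-fold.

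**Figure D3:**
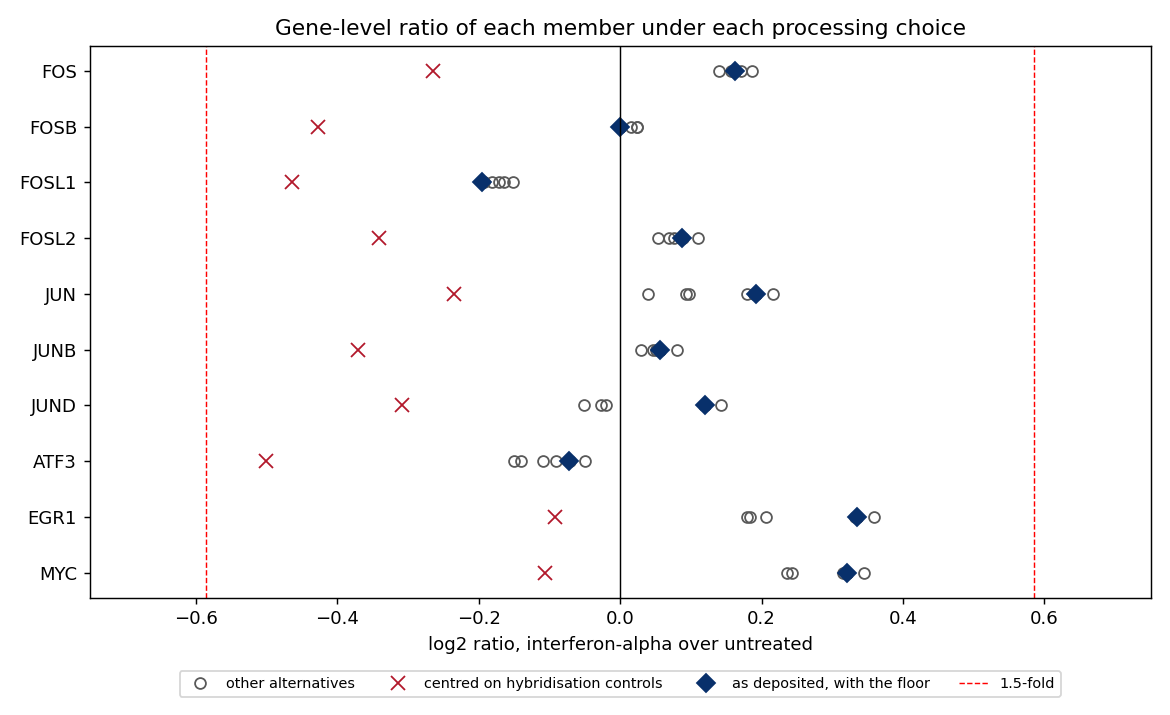
Gene-level log2 ratio of interferon-alpha over untreated for each member as deposited with the floor (diamonds), under 10 alternatives (circles, where the alternative gives a value) and centred on the hybridisation controls (crosses). All points lie inside the 1.5-fold lines. FOS, FOSL2, JUN, JUNB, EGR1 and MYC lie above 0 and FOSL1 and ATF3 below it in every circle. FOSB lies at or above 0, JUND has circles on both sides, and all 10 crosses are below 0.

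Other genes of these pathways came from 7 lists with 131 different genes that had a probe set, of which 125 were counted. With the deposited scaling, 1 passed 1.5-fold upward and 0 downward. Of all 13269 counted genes, 0.754% passed it upward and 0.0829% downward, so these counts lie near the background. The exception was BATF2, a basic leucine zipper protein of the BATF family and a known interferon-induced gene, with 202 on the interferon array and 52.5 on the untreated array (3.85-fold). The untreated value was close to the floor, and 1 probe set read it.

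The list of other immediate early genes held 36 counted genes, of which 0 passed 1.5-fold, and their median log2 ratio was 0.13. The highest were DUSP5, a phosphatase that inactivates ERK, at 2049 with interferon and 1652 untreated (log2 0.31), and ERRFI1, a feedback inhibitor of the EGF receptor, at 2279 with interferon and 1839 untreated (log2 0.31). The lowest were the nuclear receptor NR4A3 (log2 -0.24) and the kinase PLK3 (log2 -0.20), with untreated intensities of 67.8 for NR4A3 and 77.5 for PLK3. The 2 PLK3 probe sets above the floor had -0.20 and 0.13. The list was bright, with a median untreated intensity of 458 against 231 over all genes exceeding the floor in both conditions, and bright probe sets lay above 0 more often as deposited. Against the medians of their own brightness groups, 24 of 35 lay above and 11 below. DUSP5 and ERRFI1 were above the central 95% of their group and 0 genes were below it. These were 2 of the 35, where by construction 2.53% of all probe sets lay above their group's central 95%.

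Partners, regulators and targets had medians near 0. The 19 counted leucine zipper partners had a median of 0.00. Next to BATF2 the highest was ATF2, which pairs with JUN, at 0.24, and BATF (-0.13) and CREB5 (-0.10) were lowest. Probe sets above the floor ran from -0.04 to 0.24 for ATF2 and from -0.25 to 0.19 for CREB5. Among 17 counted upstream kinases and SRF or ELK factors the median was 0.08. The highest were EGFR (0.26, with its 7 probe sets above the floor running from -0.99 to 0.26) and ELK3 (0.23), and the lowest were the ERK kinases MAPK3 (-0.12) and MAPK7 (-0.09). SRF, which binds the CArG box, had 226.2 with interferon and 239.7 untreated (log2 -0.08). The 2 probe sets above the floor had 0 and 0.23 for ELK3, and -0.21 and -0.08 for SRF.

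The 15 counted AP-1 targets had a median of 0.02. ITGA2, an integrin subunit, was highest at 0.30, followed by SPP1 at 0.30 with intensities of 61.7 with interferon and 50.3 untreated, close to the floor. CD44 (-0.18) and the protease inhibitor TIMP1 (-0.15) were lowest, and MMP1, MMP3, CCL2 and IL6 stayed under the floor in both conditions. The 4 CD44 probe sets above the floor ran from -0.18 to 0.19. The 14 genes of the ATF4 and ATF3 stress response had a median of 0.08, from PPP1R15A (-0.10), a phosphatase subunit that restores translation after stress, and CHAC1 (-0.04) to the chaperone HSPA5 (0.20) and the leucine zipper factor CEBPB (0.21). PPP1R15A lay just below the central 95% of its brightness group. It was 1 of the 14, where by construction 2.53% of all probe sets lay below theirs. Its 2 probe sets above the floor had -0.10 and -0.03.

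For MYC, the 12 counted genes of its network of partners and regulators had a median of 0.07. Highest were the MYC paralogue MYCN (0.20) and FBXW7 (0.13), part of a ubiquitin ligase that degrades MYC. MYCL (-0.26) and MLXIP (-0.20) were lowest. MYCL had only 63.8 with interferon and 76.4 untreated. Probe sets above the floor ran from 0.13 to 0.33 for FBXW7 and from -0.20 to -0.05 for MLXIP. Of the 12 genes, 0 lay outside the central 95% of their brightness groups. MAX, the dimer partner of MYC, had 370.3 with interferon and 354 untreated (log2 0.07). The 4 MAX probe sets above the floor ran from -0.08 to 0.15. The 17 MYC targets had a median of 0.08. The nucleolar genes NPM1 (0.28) and NCL (0.27) were highest, and CAD (-0.08) and SRM (-0.03), enzymes of pyrimidine and spermidine synthesis, were lowest. SRM lay just below the central 95% of its brightness group, 1 of the 17, where by construction 2.53% of all probe sets lay below theirs. Those targets were bright, with a median untreated intensity of 1447, and 6 of 17 lay above the medians of their brightness groups while 11 lay below.

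Genes of the interferon response gave the scale that a large difference had on these arrays. Of 9 counted genes listed for this purpose, 7 were at least 1.5-fold higher, among them IRF9, the DNA-binding subunit of the complex that type I interferon activates (2143 with interferon and 107 untreated, 20.1-fold), IFIT5 (16.9-fold) and IFIT3 (5.79-fold). IFIT1 and MX1, antiviral effectors below the floor on the untreated array, were at least 64.5-fold and at least 16.9-fold higher. IRF1, a transcription factor that is both interferon-induced and an immediate early gene, was 1.85-fold higher with its brightest probe set. Its 2 probe sets above the floor had log2 ratios of 0.53 and 0.88, and the lower one is under 1.5-fold. The feedback inhibitors SOCS1 and SOCS3 had log2 ratios of 0.17 and -0.07 with their brightest probe sets, and the 3 SOCS1 probe sets above the floor ran from 0.09 to 0.65.

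**Figure D4:**
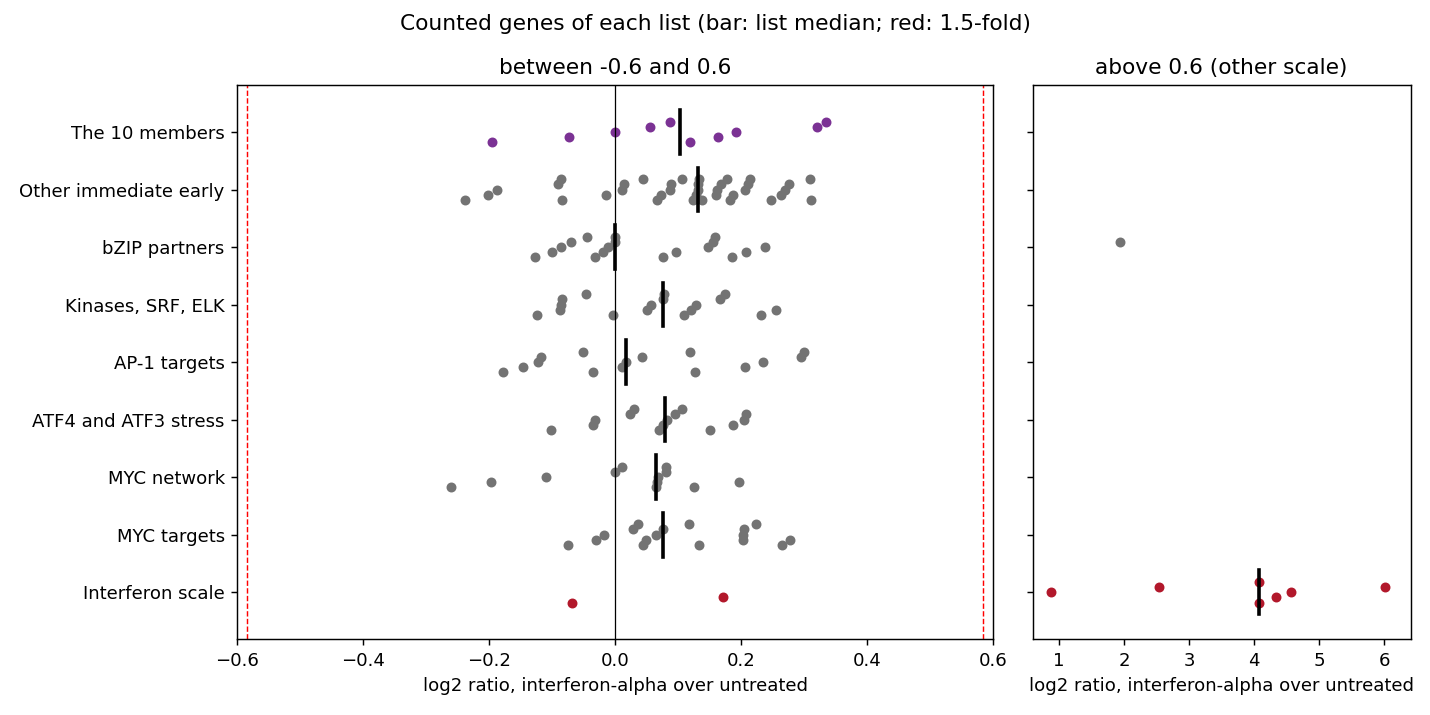
log2 ratio of interferon-alpha over untreated for each counted gene of the members and of 8 lists, with 1 point per gene, a bar at each list's median, and the range above 0.6 drawn on another scale at the right. As deposited, the members run from -0.20 to 0.34, BATF2 is the one partner past 1.5-fold (red dashes), and 7 interferon genes are past it.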

How the data were processed

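Per the submitters' processing notes, the arrays went through GCOS, the Affymetrix scanner program. Its version and the methods of background correction, probe summary and scaling were not stated there. The authors deposited 1 linear intensity for each probe set on each array, and detection calls were not used. Gene names came from the platform's annotation table, with symbols updated by gene ID. The table held 54675 probe sets, of which 62 were controls and 41091 named 1 gene.

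For each of 19775 genes, the brightest probe set by mean log2 intensity was used. Genes above the floor (50th percentile) on at least 1 array were counted. Folds of 1.5 and 2 were fixed sizes, not tests. The number of arrays limits the precision. The procedure was tested on simulated data. Python 3.11.15, numpy 2.4.6, pandas 2.3.3 and statsmodels 0.14.6 were used.

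The members, the lists and the thresholds were chosen with earlier results of these data known. The named genes are all members, list genes past 1.5-fold, the 2 highest and 2 lowest of each list above the floor on both arrays, and the interferon genes used for scale. Alternatives covered the floor, pseudocounts, scaling and the choice of probe set. A comparison of the members' protein sequences was planned and is not analysed here. SRF, MAX and the genes named as below the floor were added after their values were seen.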

Additional observations from a re-analysis of the deposited data

How the results depend on the processing

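Of 11 alternatives, all gave 0 members past 1.5-fold. A threshold of 2-fold also gave 0, as it must when 1.5-fold gives 0. The floor at the 40th percentile and the choice of the probe set brightest on the untreated array left every member ratio unchanged. Of those alternatives, 1 covered 8 members and 1 covered 7. The members' median log2 ratio, 0.10, ran from 0.04 to 0.14 over 10 of them and moved to -0.32 after centring on the hybridisation controls. That centring put all 10 members below 0. FOSL1 was at -0.46 there, a smaller shift than the 0.43 of members away from the floor. It also gave 7 of 125 counted list genes past 1.5-fold, against 1 as deposited. Among all 13775 genes counted under that centring, 59 were higher and 1201 lower by that fold, so the 7 are not particular to the lists. The medians of the 7 pathway lists ran from -0.43 to -0.30 there. Over the other 10 alternatives EGR1 ran from 0.18 to 0.36 and MYC from 0.24 to 0.35, in the 9 that gave them a value. FOS, FOSL2, JUN and JUNB were above 0 in all 10 of these. FOSL1 and ATF3 were below 0 in every alternative that gave them a value. JUND was below 0 with quantile scaling, lowess scaling and the median over its probe sets (-0.02). With probe sets ending in _x_at or _s_at left out, EGR1, MYC and JUND had no probe set left and JUN was 0.04. A floor at the 60th percentile left FOSB and FOSL1 under it in both conditions. Counts of all genes at least 1.5-fold lower, 11 as deposited, were 28 with the floor at the 40th percentile, 2 at the 60th, 33 with a pseudocount of 1, 5 with 16, 7 with median or lowess scaling and 1201 after centring on the controls. That centring gave 59 genes at least 1.5-fold higher, against 100. No paired analysis was possible because each condition had 1 array, and no replicate could be left out.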

Other observations

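Probe sets of the same member lay on the same side of like-bright probe sets in JUN, JUND, EGR1, ATF3 and FOSL2, the members with more than 1 probe set above the floor on both arrays. Relative to the medians of their brightness groups, all 3 EGR1 probe sets lay above (by 0.09 to 0.20), all 4 JUN probe sets lay above (by 0.06 to 0.17), all 3 FOSL2 probe sets above the floor lay above (by 0.04 to 0.14), both ATF3 probe sets above the floor lay below (by -0.14 and -0.16) and all 4 JUND probe sets lay below (by -0.02 to -0.12). Probe sets of a gene share the same RNA and arrays, so this describes 2 arrays and is no replicate check. How often the probe sets of other genes lie on the same side was not counted. The agreement therefore cannot be called particular to the members.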
